A study of Rattus norvegicus with 10 samples.

Results

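The coenzyme Q synthesis genes are the nuclear genes for the enzymes and partner proteins that build coenzyme Q (ubiquinone) in mitochondria. They were followed here in femoral skeletal muscle of rats at 0 h and 48 h of postmortem interval (PMI). Members were chosen by name, as Coq2, Coq3, Coq4, Coq5, Coq6, Coq7, Coq8a, Coq8b, Coq9 and Coq10a. All 10 were found among the 15037 genes that the array measures by name, each with 1 probe set, which reads the gene through several short oligonucleotides at once. The tissue came from 10 adult male Wistar rats of wild-type genotype that weighed less than 200 g and died by cervical dislocation. Muscle of 5 rats was collected at once (0 h), and 5 other rats stayed at 25 °C in a climatic chamber for 48 h before collection (48 h). No rat was sampled at both times, and a rat number names a rat within its group. Every rat had an array of its own, a Clariom S array, and the values are log2 values made with the RMA algorithm.

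Coenzyme Q is a lipid of the inner mitochondrial membrane that carries electrons from complex I, complex II and several dehydrogenases to complex III. Its head group comes from tyrosine by way of 4-hydroxybenzoate and its isoprenoid tail from the mevalonate pathway. Coq2 joins the parts, and the head group is then hydroxylated, decarboxylated and methylated by enzymes that sit together in a membrane-bound assembly called complex Q. Oxidative muscle fibres, rich in mitochondria, depend on this carrier, and inherited defects of several of these genes cause muscle weakness or ataxia in humans.

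The 250 bases before the transcription start are shown for the paralogs Coq8a and Coq8b, because the change of the former was far from that of the latter. The sequences are from RefSeq (build GRCr8), Coq8a at chr13:94463379-94463628 on the minus strand and Coq8b at chr1:91654053-91654302 on the plus strand, and capitals mark the dinucleotide CG.
Coq8a: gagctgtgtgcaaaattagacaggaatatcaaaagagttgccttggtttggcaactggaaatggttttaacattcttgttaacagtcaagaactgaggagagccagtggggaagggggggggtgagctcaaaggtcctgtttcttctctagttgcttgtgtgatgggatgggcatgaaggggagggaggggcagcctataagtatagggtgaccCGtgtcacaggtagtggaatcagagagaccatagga
Coq8b: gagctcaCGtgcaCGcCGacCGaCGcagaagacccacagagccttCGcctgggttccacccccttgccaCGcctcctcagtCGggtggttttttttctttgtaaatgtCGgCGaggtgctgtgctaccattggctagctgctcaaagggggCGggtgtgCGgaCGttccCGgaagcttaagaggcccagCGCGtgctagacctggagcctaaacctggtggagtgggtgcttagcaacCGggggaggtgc
The window of Coq8a held 1 CG and that of Coq8b held 17, where the median of 33469 rat promoters was 5 and where 7.83% and 78.1% of promoters, respectively, held fewer. The reference table held 8 of the 10 members, without Coq2 and Coq4. Coq3 had 0 CG in the same window, Coq6 had 13, Coq5 had 14, Coq7 had 15, Coq9 had 30 and Coq10a had 38. Coq3 and Coq10a both fell at 48 h, so the members that fell lay at both ends of this range. The count was taken up after the windows had been seen. Windows of 250 bases before to 50 after the start were searched on both strands for GCGCANGCG, a motif like that of nuclear respiratory factor 1, and TNAAGGTCA, a motif like that of oestrogen-related receptors, both regulators of mitochondrial genes. Neither occurred in the 8 windows, while 5.80% and 1.20% of all promoters held them. Neither motif contains the other, and a missing match says only that these letters are absent from the window.

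Of the 10 members, 7 fell at 48 h, 0 rose and 3 were not called. A gene was called to have fallen or risen where the groups differed by a fold of at least 2 with an adjusted p under 0.05 (limma, Benjamini-Hochberg over 23188 probe sets). Of all probe sets, 12.1% fell and 4.35% rose by this rule, and among probe sets at or above the median level, 22.7% fell. By adjusted p alone 8 members were lower, against 22.8% of all probe sets. In the same 8 members each rat at 48 h lay below each rat at 0 h, which held for 17.7% of all probe sets. The median log2 change was −1.51 over the members, 0.10 over all probe sets and −0.26 over those at or above the median level. Of the members, 9 were at or above that level. The shares by adjusted p alone and by overlap were taken over all probe sets, dim ones included. Changes are relative, because RMA gives the arrays a common distribution. The 7 fallen members were also lower with scale normalization and with cyclic loess, though Coq9 (−0.69) lost its call with the latter. Centring on control or olfactory receptor probe sets takes the same amount off every probe set of an array. Those sets rose at 48 h by means of 0.47 to 2.07, so centring on them could only lower the members further. Coq4, at 0.03, turned to −2.04 and −1.25 when arrays were centred on Bacillus or on E. coli and P1 control probe sets.

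**Figure D1:**
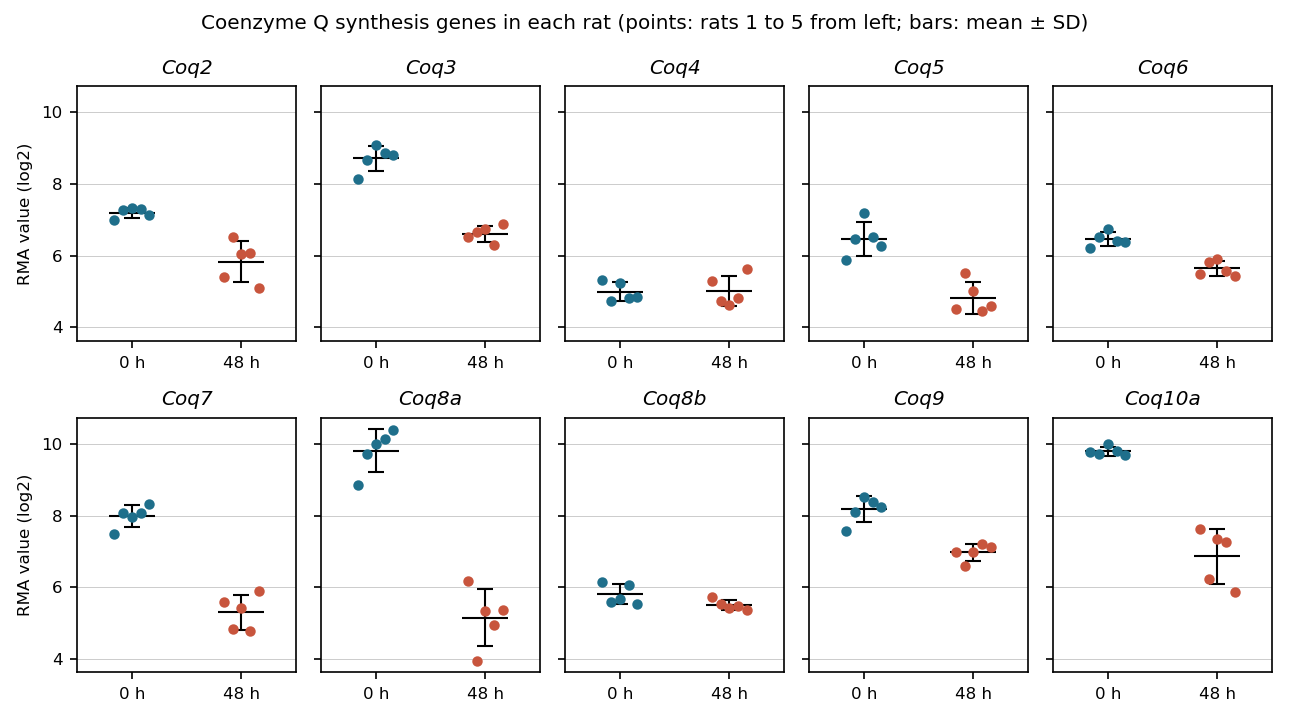
RMA value (log2) of each coenzyme Q synthesis gene in each rat at 0 h (blue) and 48 h (red); points are rats 1 to 5 from left to right, the long bar is the mean and the short bars the SD (n = 5 per group). In Coq2, Coq3, Coq5, Coq6, Coq7, Coq8a, Coq9 and Coq10a the groups do not overlap, and in Coq4 and Coq8b they do.

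The tissue carried the markers of its label, and the other markers moved as well. Of 9 measured skeletal muscle fibre markers 5 fell and 0 rose, among them Mb (myoglobin) by −2.66 and Myh1 (a fast myosin) by −4.37, while Acta1 (−0.71) and Atp2a1 (0.31) were not called, and the mean level of the list lay between 12.37 and 12.44 at 0 h and between 10.20 and 11.41 at 48 h. Endothelial markers rose in 4 of 6 cases (mean level 6.64 to 7.19 at 0 h and 7.78 to 8.46 at 48 h) and erythroid markers in 4 of 4 (7.61 to 8.67 and 9.63 to 10.26). Fibroblast markers fell in 4 of 5 cases (9.80 to 10.30 and 8.79 to 9.09), macrophage markers in 1 of 5 (4.68 to 5.12 and 4.32 to 4.73) and adipocyte markers in 0 of 3 (3.98 to 6.31 and 4.51 to 5.03), and 1 of 2 Schwann cell markers rose (6.36 to 7.01 and 7.36 to 7.96). No marker is at 0 on this scale. In bulk tissue, fewer cells of a type and less RNA per cell cannot be told apart. The study's methods state that RNA integrity was checked by gel at 0 h and not at 48 h. The part of cell makeup or RNA integrity in the changes of the coenzyme Q genes was not tested.

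Coq2 is the polyprenyltransferase that attaches the isoprenoid tail to 4-hydroxybenzoate. Its values were 6.99, 7.28, 7.32, 7.29 and 7.13 in rats 1 to 5 at 0 h and 5.41, 6.51, 6.05, 6.08 and 5.10 at 48 h. The groups did not overlap, and the rats at 48 h lay further apart than those at 0 h. Coq2 fell by 1.37 on the log2 scale (SE 0.23, a fold of 2.59, limma adjusted p = 0.000122).

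The hydroxylases differed in the size of their change. Coq6, a flavin-dependent hydroxylase that receives its electrons through ferredoxin, measured 6.22, 6.52, 6.74, 6.42 and 6.39 at 0 h and 5.48, 5.82, 5.91, 5.57 and 5.43 at 48 h. Each rat at 48 h was lower, yet the difference of −0.81 (SE 0.16, adjusted p = 0.000746 with limma) is a fold of 1.76 and stayed short of the fold criterion. Coq7, the di-iron hydroxylase that acts near the end of the pathway, measured 7.49, 8.08, 7.95, 8.08 and 8.31 at 0 h and 5.59, 4.82, 5.42, 4.77 and 5.89 at 48 h. Every rat at 0 h stood well clear of the rats at 48 h. Coq7 fell by 2.68 (SE 0.23, a fold of 6.41, limma adjusted p = 9.00e-08). Its values at 48 h lay 0.96 to 2.35 above the median of the array's background probe sets, so the exact size rests on values close to background.

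Both methyltransferases fell. Coq5, which adds the C-methyl group to the ring, measured 5.88, 6.45, 7.19, 6.51 and 6.26 at 0 h and 4.50, 5.51, 5.02, 4.44 and 4.59 at 48 h. The gap between the lowest rat at 0 h and the highest at 48 h was narrow, and the change was −1.65 (SE 0.25, a fold of 3.13, limma adjusted p = 4.11e-05). Coq3, which carries out both O-methylation steps, measured 8.15, 8.68, 9.08, 8.87 and 8.82 at 0 h and 6.52, 6.67, 6.73, 6.29 and 6.88 at 48 h. Its groups stood further apart, with a change of −2.11 (SE 0.19, a fold of 4.30, limma adjusted p = 1.80e-07).

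Coq4 and Coq9 moved differently. Coq4, a core protein of complex Q that removes the ring carboxyl group in human cells, measured 5.33, 4.74, 5.23, 4.81 and 4.84 at 0 h and 5.28, 4.72, 4.63, 4.82 and 5.63 at 48 h. The groups overlapped throughout, with the highest value in rat 5 and the lowest in rat 3, both at 48 h. Its difference was 0.03 (95% interval −0.41 to 0.47, limma adjusted p = 0.926, two-sided exact permutation p = 0.921), so a fall by the fold criterion lies outside the interval on this scaling. The lowest rat at 0 h was only 1.68 above the median of its array's background probe sets, which leaves little room for a measured fall. Coq9, the lipid-binding partner of Coq7, measured 7.58, 8.11, 8.53, 8.38 and 8.25 at 0 h and 6.98, 6.59, 6.99, 7.20 and 7.12 at 48 h. Coq9 fell by 1.20 (SE 0.19, a fold of 2.29, limma adjusted p = 9.36e-05), with rat 1 at 0 h closest to the 48 h rats. Under cyclic loess normalization its change was −0.69 (adjusted p = 0.0149 with limma) and the call was lost.

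Coq8a and Coq8b encode atypical kinase-like proteins, also called Adck3 and Adck4, that bind and hydrolyse ATP and are needed for complex Q. Coq8a measured 8.84, 9.72, 9.99, 10.13 and 10.40 at 0 h and 6.16, 3.94, 5.34, 4.93 and 5.37 at 48 h. No rat at 48 h came near the lowest rat at 0 h. Coq8a fell by 4.67 on the log2 scale (SE 0.34, 95% interval −5.38 to −3.95, a fold of 25.4, limma adjusted p = 2.53e-08). Its values at 48 h lay 0.31 to 2.34 above the median of the array's background probe sets, and at 0 h at least 5.71 above it. That median rose itself, from between 3.04 and 3.14 at 0 h to between 3.54 and 3.82 at 48 h. No value of Coq8a at 48 h reached the highest of the background probe sets of its array, which was at 8.40 to 9.47 and above most probe sets. The fold is the ratio as measured, and its exact size rests on values close to background.

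Coq8b measured 6.13, 5.59, 5.68, 6.06 and 5.54 at 0 h and 5.72, 5.52, 5.41, 5.48 and 5.36 at 48 h. The groups overlapped, and the difference was −0.30 (95% interval −0.66 to 0.052, limma adjusted p = 0.152, two-sided exact permutation p = 0.0556). To compare the paralogs, Coq8a minus Coq8b was taken within each array. It was 2.71, 4.13, 4.31, 4.06 and 4.86 at 0 h and 0.44, −1.58, −0.07, −0.55 and 0.01 at 48 h. The difference between paralogs thus changed by −4.36, with no overlap between groups (two-sided exact permutation p = 0.00794, the smallest that 252 splits of 5 against 5 allow, and 0.00794 after Benjamini-Hochberg adjustment over 2 pairs). The level of such a difference depends on the oligonucleotides of both probe sets, and only its change between groups is read here. The lowest rat of Coq8b at 0 h was only 2.50 above the background median of its array. That left little room for a measured fall as large as that of Coq8a, so the test cannot tell a smaller fall from a lower starting level.

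Coq10a belongs to a family that binds coenzyme Q and is needed in yeast for its function in respiration. Its values were 9.78, 9.72, 10.00, 9.79 and 9.69 at 0 h and 7.62, 6.24, 7.33, 7.25 and 5.87 at 48 h. The rats at 0 h were nearly equal, and those at 48 h were spread over a wide range below them. Coq10a fell by 2.93 (SE 0.28, a fold of 7.64, limma adjusted p = 2.78e-07). Its paralog Coq10b measured 6.29, 5.31, 5.37, 6.06 and 5.66 at 0 h and 6.24, 6.92, 7.03, 5.41 and 6.16 at 48 h, a difference of 0.61 (SE 0.28, limma adjusted p = 0.0817) with overlapping groups. Coq10a minus Coq10b within each array was 3.49, 4.41, 4.63, 3.73 and 4.03 at 0 h and 1.38, −0.69, 0.29, 1.84 and −0.29 at 48 h. The groups of this difference did not overlap either, and it changed by −3.55 (two-sided exact permutation p = 0.00794, adjusted over the pairs 0.00794). The lowest rat of Coq10b at 0 h was only 2.24 above the background median of its array, which left little room for a fall as large as that of Coq10a. Of the members, 3 (Coq8a, Coq10a and Coq7) had a change of −2.5 or lower, as did 1.37% of all probe sets, dim ones included.

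**Figure D2:**
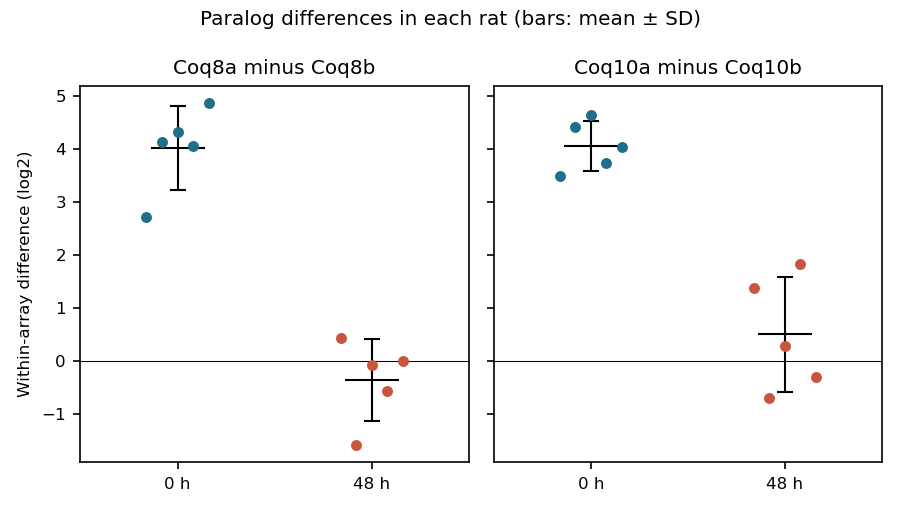
Within-array difference (log2) of Coq8a minus Coq8b and of Coq10a minus Coq10b in each rat at 0 h and 48 h; the long bar is the mean and the short bars the SD (n = 5 per group). All 0 h rats lie at 2.71 or higher and all 48 h rats at 1.84 or lower.

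**Figure D3:**
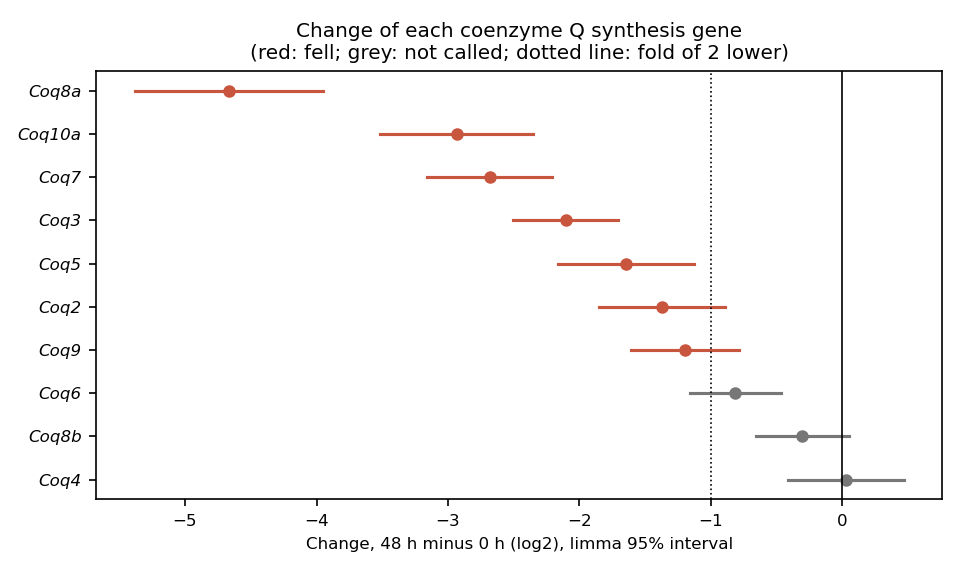
Change of each coenzyme Q synthesis gene from 0 h to 48 h (log2), ordered by size, with limma's 95% interval as the bar; red genes fell and grey genes were not called. The changes run from −4.67 in Coq8a to 0.03 in Coq4, and the dotted line marks a fold of 2 lower.

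In the order of their changes, the intervals of neighbours mostly overlapped. Coq8a, Coq10a and Coq7 led, followed by Coq3, Coq5, Coq2 and Coq9. Coq6, Coq8b and Coq4 closed the order. The interval of Coq8a (−5.38 to −3.95) did not meet that of Coq10a (−3.51 to −2.35), while Coq10a and Coq7 (−3.16 to −2.21) overlapped. Neighbours further down overlapped too, and these differences between neighbours were not tested. The changes went with the level at 0 h. Pearson r of the mean log2 level at 0 h and the change was −0.88 over the 10 members and −0.60 over all probe sets, as a description, since both quantities share the 0 h arrays and a level depends on the probes. The members that were not called were among those of low level, with Coq4 at 4.99, Coq8b at 5.80 and Coq6 at 6.46, whereas Coq8a (9.82) and Coq10a (9.80) were the highest. Level did not divide them fully, since Coq5, also at 6.46, fell by 1.65. The part of the level in the order of the changes, or in the differences between paralogs, was not tested.

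The spread from rat to rat was wider at 48 h for most members. The median SD of a member was 0.29 at 0 h and 0.44 at 48 h, against 0.19 and 0.37 over all probe sets, and it was larger at 48 h in 6 of 10 members. Between pairs of members, Pearson r over the 5 rats of 0 h was above 0 in 30 of 45 pairs (median 0.45), and over the 5 rats of 48 h in 20 of 45 (median −0.11). Without rat 1 of 0 h it was above 0 in 31 pairs (median 0.39). Coq5 and Coq6 had an r of 0.97 at 0 h and 0.80 at 48 h, and Coq7 and Coq8a 0.94 and 0.72. Coq3 and Coq9 went from 0.997 at 0 h to −0.25 at 48 h. These values share the normalization of the arrays, rest on few rats and are given as a description. At 0 h, rat 1 had the lowest value in 7 of 10 members and the highest in 2, and rat 3 had the highest in 6. In the same rat 1, Mb was 9.63, against 11.03 to 11.62 in the other rats at 0 h. Myh7, the slow myosin of oxidative fibres, was 4.08 in rat 1 and 9.55, 4.97, 8.76 and 10.33 in rats 2 to 5. Without rat 1 of the 0 h group 7 members still fell, and leaving out any other rat also gave 7.

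The gene most like each member over the 10 arrays was found by Pearson r among probe sets with a symbol. Since the arrays form 2 groups, a gene with a large change can reach a high r by its step alone, and the values are descriptions. For Coq8a the 3 closest were Idh2, a mitochondrial isocitrate dehydrogenase, Ndufb8, a complex I subunit, and Fabp3, the fatty acid-binding protein of heart and oxidative muscle, each with r = 0.995. Respiratory chain subunits were also closest to Coq10a (Ndufv2 of complex I, 0.995) and Coq9 (Uqcrfs1, the Rieske protein of complex III, 0.982). Coq7 was closest to Actn2, alpha-actinin of the Z-disc (0.996), and Coq3 to Acat1, a mitochondrial thiolase (0.996). The closest to Coq5 was Coq6 (0.977), and Coq6 was closest to Pop5 (0.982) and Coq2 to Dctn2 (0.989). The members that were not called and overlapped had lower values, Coq4 with Foxa3 at 0.892 and Coq8b with Otud7b at 0.876.

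The genes around coenzyme Q were counted in 6 lists, by the rule under which 12.1% of all probe sets fell. Among probe sets at or above the median level 22.7% fell. The mean level at 0 h was 9.56 to 10.18 in complex III and 4.26 to 4.55 in the side chain and head group list. The part of level in the counts of the lists was not tested. Complex III, which oxidises the reduced carrier, fell in 9 of 9 measured subunits, with a median change of −1.95 and a range from −3.33 to −1.24, and in 8 with cyclic loess. Uqcrc1, a core subunit, measured 8.65, 9.76, 10.18, 10.03 and 9.87 at 0 h and 6.91, 6.16, 6.43, 6.29 and 6.02 at 48 h, and it fell by 3.33 (limma adjusted p = 3.81e-08). Rat 1 was the lowest at 0 h and the highest at 48 h, with no overlap between the groups. Uqcr10 (−2.66), Uqcrq (−2.48) and Uqcrc2 (−2.45) fell as well.

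The proteins that pass electrons to coenzyme Q outside complex I, directly or, for Etfa and Etfb, through Etfdh, fell in 8 of 13 cases, with a median of −1.81. Etfb, a subunit of the electron transfer flavoprotein of fatty acid oxidation, measured 9.09, 9.74, 9.56, 9.56 and 9.86 at 0 h and 6.81, 5.61, 6.26, 6.75 and 6.56 at 48 h, and fell by 3.16 (limma adjusted p = 2.09e-08). Its partner Etfa fell by 2.39, and Sdha, the flavoprotein of complex II, changed by −2.53. Gpd2, the mitochondrial glycerol-3-phosphate dehydrogenase, fell by 2.48. Among the 5 not called were Sqor, the sulfide quinone oxidoreductase, at −0.91 and Chdh, the choline dehydrogenase, at 0.56. Sqor met the rule without rat 1 of 0 h (−1.003), without rat 3 of 48 h (−1.02) and with cyclic loess (−1.06).

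Partners and regulators fell in 4 of 10 measured cases, with a median of −0.78. These were Fdx1, a mitochondrial ferredoxin (−2.21), Yme1l1, an inner membrane protease (−1.90), Cox15, a haem A synthase (−1.62), and Pptc7, a mitochondrial phosphatase that acts on coenzyme Q synthesis in mice (−1.59). Adck1, another kinase-like protein of the Coq8 family, was at −0.89 and was not called. It met the rule without rat 1 of 0 h (−1.02) and with cyclic loess (−1.15). The protease Oma1 was at −0.67 and was not called. Fdx2, also a mitochondrial ferredoxin, was at 0.58 (limma adjusted p = 0.0232) with overlapping groups, short of the fold criterion. Fdxr and Stard7 had no probe set by name.

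Of 8 measured mevalonate pathway genes 2 fell, Fdps, the farnesyl diphosphate synthase (−1.30), and Pmvk, the phosphomevalonate kinase (−1.05), with a median of −0.70. Fdps lost its call with cyclic loess (−0.91). Ggps1 (−0.82) and Mvk (−0.80) were not called. Of 4 genes of the side chain and head group 1 fell, Pdss2, a subunit of the synthase that makes the polyprenyl tail (−1.09), and the median was −0.01. Hpdl, which makes a head group precursor in human cells, was at −0.14 and Hpd at 0.29, and Pdss1 had no probe set by name. The lowest rat at 0 h was only 0.20 (Hpdl) and 1.30 (Hpd) above the background median of its array, which leaves little room for a measured fall. Of 4 extramitochondrial quinone reductases 1 fell, Nqo2 (−1.15), while Nqo1 was at −0.56 and Cyb5r3 at 0.46, and the median was −0.44. These calls were close to the fold criterion. Pdss2 (−0.78), Pmvk (−0.84) and Nqo2 (−0.87) lost it without rat 4 of 48 h, and Pmvk also without rat 3 (−0.97) or rat 5 (−0.996) of 0 h. None of the 6 lists held a gene that rose in the fit reported. With cyclic loess, Cyb5r3 met the rule for a rise (1.09, limma adjusted p = 0.000297).

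**Figure D4:**
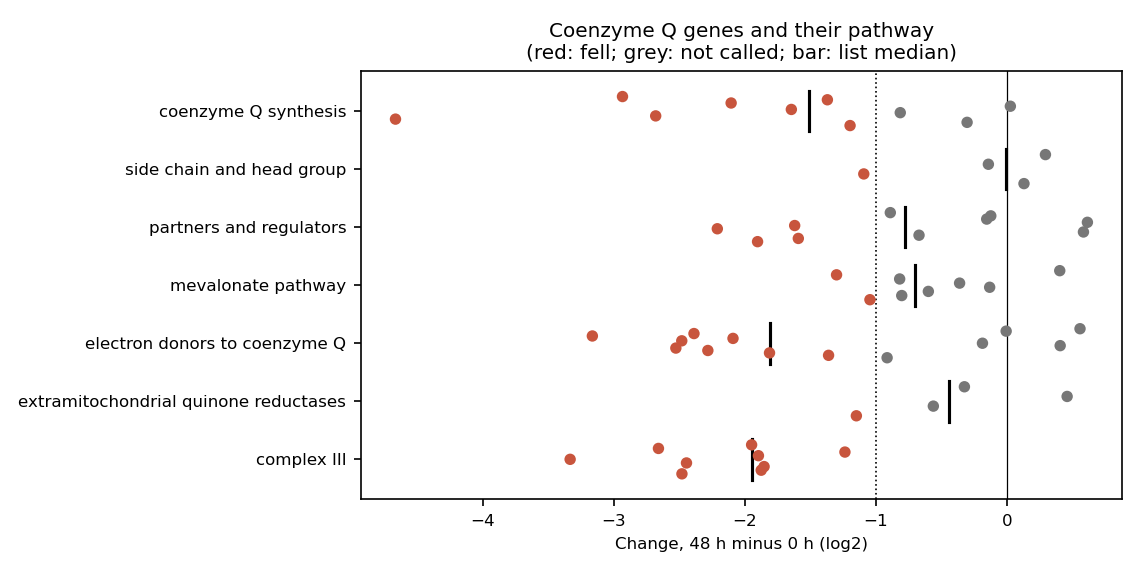
Change from 0 h to 48 h (log2) of each measured gene of the coenzyme Q synthesis genes and of 6 lists around them, 1 point per gene; red points fell, grey points were not called, the black bar is the list median and the dotted line a fold of 2 lower. All 9 complex III genes lie left of −1, and the median of the side chain and head group list lies at −0.01.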

How the data were processed

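Femoral muscle of 10 rats was profiled on Clariom S arrays. RNA was labeled with a 3′ IVT Pico kit, and the authors deposited log2 values made with RMA, which corrects background, equalises the distributions of the arrays and summarises probe sets; the submitters' processing notes name Transcriptome Analysis Console 4.0 and build rn6. Of 24834 probe sets, 1646 controls (1552 RG1, 63 ERCC and 31 AFFX) were left out. Symbols came from the platform table, 15049 probe sets having 1 and 8139 having none. The 48 h and 0 h groups were compared with limma 3.58.1 in R 4.3.3 (8 residual and 8.99 prior degrees of freedom), and single differences with an exact permutation test (scipy 1.17.1), both two-sided. The script was tested on simulated data. Members and lists were chosen with earlier results of these data known. Genes named outside the members were up to 4 called genes of a list with the largest change, up to 2 not called, the gene most alike in pattern to each member (3 for Coq8a) and markers. Coq10b was named as a paralog, and Myh7, Fdx2, Cyc1, Sdhb, Etfdh and Uqcrfs1 after their values were seen. The number of arrays limits precision. Alternatives changed normalization, moderation, filter, threshold, rats and replicate block.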

Additional observations from a re-analysis of the deposited data

Results flagged for a closer look

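Groups of 5 rats were looked at for a rat that stands apart, over the 10 members and the 48 measured genes of the lists around coenzyme Q. Of these 116 groups, 9 had a lowest or highest rat whose gap to the next was over 0.71 of the whole range, where chance gives about 1 in 20. None of the 20 groups of the members was among the 9. Rat 1 of 0 h was the lowest in 7 of them, with Uqcrc1 at 8.65 (next 9.76), Uqcrfs1 at 8.07 (next 9.0), Cyc1 at 10.42 (next 11.03), Sdha at 8.18 (next 8.76), Sdhb at 10.70 (next 11.24), Etfdh at 6.52 (next 7.02) and Mvk at 5.58 (next 6.13). At 48 h, Nqo2 was lowest in rat 4 at 4.22 (next 5.44) and Uqcrfs1 in rat 2 at 6.34 (next 7.18).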

How the results depend on the processing

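The number of members that fell was 7 in the fit reported and ran from 6 to 10 over the alternatives, with 7 whichever rat was left out. Their median change was −3.58 with arrays centred on Bacillus controls, −2.79 on E. coli and P1 controls, −1.97 on 1057 olfactory receptor probe sets and −1.30 with cyclic loess, and −1.68 to −1.40 with a rat left out. These scalings moved the median of all probe sets from 0.10 to −1.97, −1.18, −0.37 and 0.01, so the members' medians are best read relative to it. The share of lower among called probe sets was 73.6% (2811 against 1009), and 100% (22407 against 0), 99.9% (14650 against 13), 96.1% (5061 against 208) and 61.1% (2049 against 1307) under the same 4 scalings, and it was 83.1% (2629 against 534) without dim probe sets. Centred on Bacillus or on E. coli and P1 controls, Coq4 reversed to −2.04 and −1.25, Coq6 was called at −2.88 and −2.09 and Coq8b at −2.37 and −1.58. Coq6 was also called when centred on olfactory receptors (−1.28) and by adjusted p alone (−0.81), and Coq9 lost its call with cyclic loess (−0.69). With Bacillus controls Chdh, Cyb5r3 and Hpd reversed to −1.51, −1.61 and −1.78, and 4 side chain and head group genes, 10 partners, 8 mevalonate genes, 13 electron donors and 4 extramitochondrial reductases fell. With olfactory receptors 5 mevalonate genes and 2 extramitochondrial reductases fell, and with cyclic loess 1 and 0. With a rat left out, counts ran from 1 to 2 for the mevalonate pathway, 0 to 1 for side chain and head group and 0 to 1 for extramitochondrial reductases. Centring takes the same amount off every probe set of an array. At 48 h the Bacillus, E. coli and P1, and olfactory receptor sets had risen by means of 2.07, 1.28 and 0.47. The shifts under these scalings are those amounts, so the reversals there are not separate results on the genes named. The cause of the rise of these sets, and of the other shifts, was not tested. Leaving out rats and the replicate block for these lists were chosen after seeing the data. Replicate numbers name different rats at each time, and same-numbered rats did not deviate together (r from −0.0042 to 0.0761 over probe sets). With the replicate block 7 members fell, and over all probe sets 2815 fell and 1009 rose. Both paralog differences kept their direction and passed their test in each alternative run. Other probe sets of a member could not be tried, since each has 1. Signal over background limits the members of low level at 48 h. The values reached down furthest in Coq8a (0.31 to 2.34 above the background median), Coq5 (0.64 to 1.88), Coq7 (0.96 to 2.35) and Coq4 (0.98 to 2.09). No value of any of the 10 members at 48 h lay above the highest background probe set of its array.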
